A study of Mus musculus with 232 samples.

Results

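Dgcr8-/- embryonic stem cells (ESCs) transfected with a let-7 mimic were split by their own level of Rrm2, and every other gene was compared between the cells with high and with low Rrm2. The members were 48 let-7 cells, which account for 55 of the 232 deposited sequencing runs of the series. They were selected on a measured value: repeat runs of a cell were added up, the counts were scaled to CPM (counts relative to the total of the cell, times 1e+06), and the cells were divided at the median Rrm2 level, with 24 cells above it and 24 at or below it. Rrm2 itself was left out of every comparison. All cells were mouse ESCs grown in serum with LIF and 2i (PD0325901 and CHIR99021) and captured on a Fluidigm C1 chip. Besides the let-7 cells, the series held 60 mock Dgcr8-/- cells, 58 Dgcr8-/- cells given a miR-294 mimic and 16 wild-type cells, whose titles name them V6.5. Cells were taken 24 h after transfection, and the labels give no mimic for the wild-type cells. The genotype label names the mimic only as let-7, while the sample titles give let-7i, the series description let-7b and the methods of the study let-7c.

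Dgcr8 is needed to process most miRNAs, so these cells lack nearly all endogenous miRNAs and the mimic acts almost by itself. let-7 is a miRNA family that is scarce in ESCs and builds up as cells differentiate, where it holds down growth and cell cycle genes. Rrm2 encodes the small subunit of ribonucleotide reductase, the enzyme that makes deoxynucleotides for DNA synthesis, and its mRNA is known to rise in S phase. Rrm2 is also on the study's list of let-7 targets from earlier bulk arrays, and the authors kept only let-7 cells in which that list as a whole was lowered. The mature sequences of the 3 family members named are shown because they share the seed, bases 2 to 8, printed in capitals. They are from RefSeq (GRCm38.p6).
let-7b-5p: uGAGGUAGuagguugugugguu
let-7c-5p: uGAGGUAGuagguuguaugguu
let-7i-5p: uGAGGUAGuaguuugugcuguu
The 3′ UTR of Rrm2 in Gencode M21 was 914 bases long and held 1 match to this seed, which starts at base 130 of the UTR and is printed in capitals with the bases before it.
Rrm2 site: taaaaagctgtgtagCTACCTC
The letters CTACCTC were present in the longest 3′ UTR of 1093 of 10303 tested genes with a UTR (10.6%). They were present in 121 of 166 genes of the let-7 target list (72.9%), a list that had been drawn up with seed matches in view.

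Each condition was 1 culture on 1 chip, so the let-7 cells are not replicates of a treatment. The contrast between high-Rrm2 and low-Rrm2 cells is therefore a description by size, without p-values. Total counts per cell were alike over the 48 cells, with a median of 1543500 (808430 to 3979300) in high-Rrm2 and 1522800 (1025600 to 3469700) in low-Rrm2 cells. Reads were counted without molecular identifiers, so the Poisson intervals given below cover the sampling of reads only, not of molecules. The binomial intervals of phase shares treat cells of 1 culture as separate draws and do not cover differences between cultures. There were 3 pairs of let-7 cells that were nearly identical over genes (Pearson r 0.987 to 0.991 on log2 CPM, against 0.633 at most for any other pair). The chi-square per gene of these pairs was 5.61, 2.53 and 1.84. It was 1.30 to 3.61 between runs of a cell and at least 56.8 between other cells. Each pair was averaged and counted as 1 cell, which left 45 cells, 23 with high and 22 with low Rrm2. In 1 high-Rrm2 cell the 2 runs differed as much as different cells do (r = 0.490), with Rrm2 at 217 CPM in the first run and 0 in the second. Results without this cell are given beside those that it changes.

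Rrm2 was spread widely among let-7 cells. It lay between 35.5 and 582 CPM (median 160) in the 24 high-Rrm2 cells and between 0 and 29.97 CPM (median 0.29) in the 24 low-Rrm2 cells. No Rrm2 count was recorded in 12 of the low-Rrm2 cells, and 16 were under 1 CPM. The median that divided the cells was 32.7 CPM, and the nearest cells on either side were at 29.97 and 35.48 CPM, followed by 20.9 and 57.6 CPM. These values chose the cells and are given as a description. The median level over all cells was 333 CPM in mock cells, 554 CPM in miR-294 cells and 636 CPM in wild-type cells, so that even the highest let-7 cell lay below the median of the wild-type cells. Rrm2 (ENSMUSG00000020649) lies on chromosome 12 at 24708241 to 24714146 (GRCm38, plus strand).

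**Figure D1:**
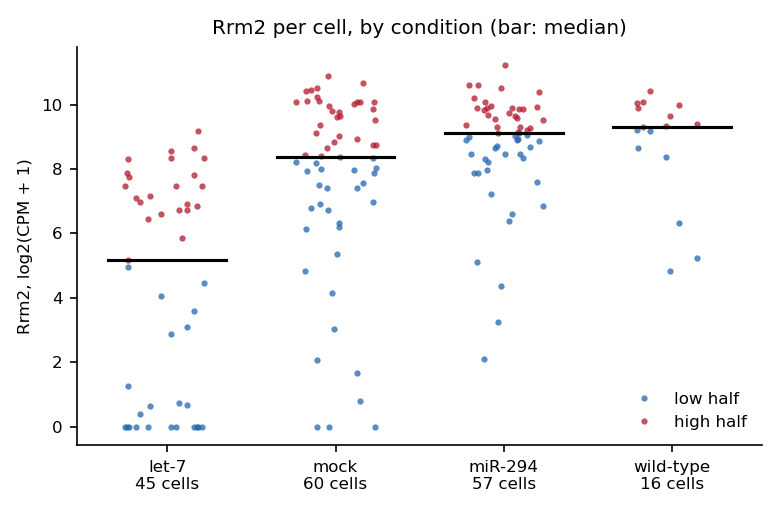
Rrm2 level of each cell on the log2(CPM + 1) scale (y axis) in the 4 conditions (x axis), with cells above the median of their condition in red, cells at or below it in blue and the median as a bar. The let-7 cells reach from 0 to 582 CPM and lie mostly below the mock, miR-294 and wild-type medians of 333, 554 and 636 CPM.

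The other subunits of ribonucleotide reductase did not reach the limits for a call that are given below. Rrm1, the large subunit, was at 256 ± 208 CPM (SD, n = 23) in high-Rrm2 and 204 ± 276 CPM (SD, n = 22) in low-Rrm2 cells. Its medians of 283 and 105 CPM lay further apart than these means, and the ranges of 0 to 611 and 0 to 987 CPM overlapped. Rrm2b, the p53-inducible small subunit that can replace Rrm2, had medians of 9.63 and 7.36 CPM but means in the other order, 20.01 ± 21.7 and 40.5 ± 71.9 CPM (SD), with a highest value of 279.97 CPM in a low-Rrm2 cell. The Dgcr8 transcript, part of which is deleted in the knockout, was low in both (medians of 7.78 and 6.78 CPM) and in mock cells (7.87 CPM), against 22.3 CPM in miR-294 cells and 43.6 CPM in wild-type cells. Counts per gene do not show which exons the reads came from, so these levels do not check the genotype label.

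Of 11184 genes that averaged 5 or more counts over all cells, 94 were called higher in high-Rrm2 cells (0.84%) and 2 were called lower (0.0179%). A call needed a log2 ratio of the mean CPM (with 1 CPM added to each mean) of at least 1 in size, together with an AUC of at least 0.75 or at most 0.25. The AUC is the share of pairs of a high-Rrm2 and a low-Rrm2 cell in which the high-Rrm2 cell has the higher level, with ties counted as 0.5. Over all genes the median log2 ratio was 0.01 and the median AUC 0.539. Of the 94 genes, 18 were on the lists of replication licensing, replication fork, deoxynucleotide synthesis and mitosis, which had 113 measured genes (15.9% called, against 0.84% of all genes).

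The number of genes detected moved with the same split. Over the 45 cells it was 8634 (median, 6084 to 10114) in high-Rrm2 and 7584 (6393 to 9726) in low-Rrm2 cells, with an AUC of 0.765. The AUC of the total count was 0.484. Across the 45 cells, Rrm2 had a Spearman rho of 0.39 with genes detected and -0.03 with the total count, both as a description of cells from 1 chip. On the scale of the difference in mean log2(CPM + 1), with the same limits, 114 genes were higher (1.02%) and 4 lower (0.0358%). When a linear effect of genes detected was then removed from log2(CPM + 1) of each gene, 24 genes were higher (0.215%) and 36 lower (0.322%), and 9 of the 94 genes stayed called. The difference stayed above 0 in all 94 genes and at 1 or more in 86 of them, and their median was 1.76 with genes detected removed and 2.43 without that step. Their median AUC went from 0.771 to 0.702, and 39 of them lay between 0.70 and 0.75, below the limit. Tk1, for example, had a difference of 2.71 against 3.10 without that step (AUC 0.702), Mcm4 of 2.38 against 2.69 (AUC 0.735) and Pcna of 1.96 against 2.26 (AUC 0.731). The AUC fell further in others, to 0.67 in Cdc6, 0.6265 in both Uhrf1 and Plk1, and 0.597 in Nme4. The effect of genes detected was fitted over all 45 cells without the Rrm2 split in the fit. Because genes detected differed by that split, any difference that the 2 share was removed as well. This alternative was chosen after the data were seen, and in cells without a count of a gene its adjusted value depends on genes detected alone. The part of genes detected in the single-gene calls was not tested beyond these values.

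**Figure D2:**
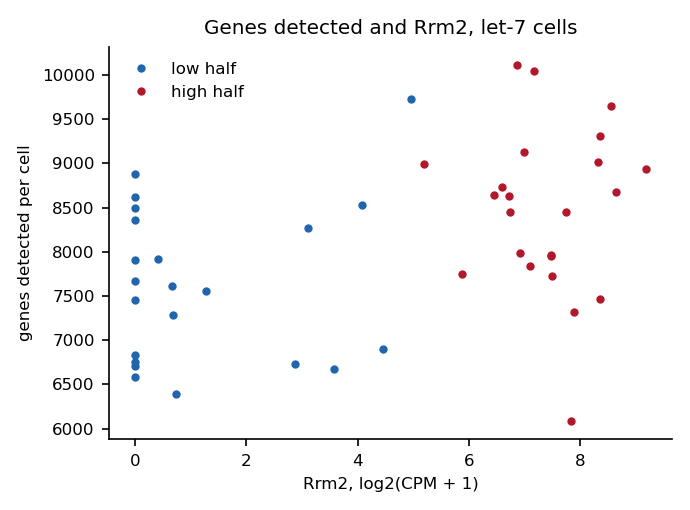
Number of genes detected (y axis) against the Rrm2 level on the log2(CPM + 1) scale (x axis) in the 45 let-7 cells, with high-Rrm2 cells in red and low-Rrm2 cells in blue. The high-Rrm2 cells have a median of 8634 genes and the low-Rrm2 cells of 7584, and the 2 sets of cells overlap.

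Licensing and initiation of replication had the highest share of called genes among the lists. Origins are licensed when ORC, Cdc6 and Cdt1 load the Mcm2 to Mcm7 helicase, which the kinase Cdc7 and the Cdc45 and GINS proteins then switch on. Of 24 genes in this list, 7 were called higher and 0 lower, 20 had a ratio above 0, and the median log2 ratio was 0.73 against 0.01 for all genes. The summed level of the list was 3349 CPM (median, 1552 to 6235) in high-Rrm2 and 2099 CPM (803 to 4182) in low-Rrm2 cells, with 4004 CPM in mock cells. With genes detected removed, the median difference of the list in mean log2(CPM + 1) was 1.505, against 1.92 without that step and 0.06 for all genes with it, and 0 of its genes were called. As the mean log2(CPM + 1) over the list, the medians of the cells were 5.41 and 3.99 (AUC 0.905), next to 3.47 and 3.10 (AUC 0.789) for the mean over all tested genes.

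Cdc6, which loads the helicase (chr11:98907801-98923940, plus strand), had the widest gap among the list genes. Its level reached 496 CPM in high-Rrm2 cells (lowest 0, median 4.95), where 15 of 23 cells had counts, and 37.8 CPM in low-Rrm2 cells (lowest and median 0), where 2 of 22 had counts. The means were 71.9 ± 128 and 2.03 ± 8.11 CPM (log2 ratio 4.59, AUC 0.785). The high mean rested on a part of the high-Rrm2 cells, while low-Rrm2 cells were nearly devoid of Cdc6 reads. Cdt1, its partner in licensing (chr8:122568015-122573554, plus strand), was at 0 to 644 CPM (median 41.5) in high-Rrm2 and 0 to 52.9 CPM (median 0) in low-Rrm2 cells (log2 ratio 2.98, AUC 0.818). It was counted in 21 of 23 and 10 of 22 cells. Cdc45 had medians of 28 and 0 CPM (log2 ratio 1.95), Cdc7 of 9.82 and 0 CPM (1.64) and Gins1 of 16.7 and 0 CPM (2.43).

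The helicase subunits differed less by ratio but were abundant. Mcm4 was at 23.3 to 1117 CPM (median 146) in high-Rrm2 and 0 to 243 CPM (median 47.4) in low-Rrm2 cells (log2 ratio 1.91, AUC 0.775). Mcm5 was at 8.63 to 1339 CPM (median 294) and 0 to 677 CPM (median 110), with a log2 ratio of 1.18. Both ranges overlapped. Mcm3 (log2 ratio 0.94, AUC 0.773), Mcm6 (1.06, 0.708), Mcm7 (0.73, 0.719) and Mcm2 (0.64, 0.698) did not reach both limits. The subunits of the origin recognition complex were not called: Orc2, Orc3, Orc4 and Orc5 had log2 ratios of -0.54, -1.31, -0.66 and -0.31, and Orc1 and Orc6 of 0.21 and 0.29.

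At the replication fork, 4 of 30 genes were called higher and 0 lower, with a median log2 ratio of 0.69. Rfc5, a subunit of the clamp loader (chr5:117378103-117389047, minus strand), was counted in all 23 high-Rrm2 cells at 1.88 to 385 CPM (median 112). In low-Rrm2 cells it reached 202 CPM, with a median of 0.67 CPM and counts in 13 of 22 cells (log2 ratio 2.30, AUC 0.889). The AUC was the second highest of all genes, and Rfc5 was among the genes that stayed called with genes detected removed. Pcna, the sliding clamp, was at 50.4 to 732 CPM (median 260) and 0 to 523 CPM (median 97.6), with a log2 ratio of 1.17. Chaf1b, a histone chaperone subunit at the fork, was at 167 ± 153 and 65.4 ± 94.0 CPM (log2 ratio 1.34). Uhrf1, which guides maintenance methylation of new DNA, was at 403 ± 286 and 163 ± 205 CPM (log2 ratio 1.30). Asf1b, a histone chaperone outside this list, had a median of 99.9 CPM in high-Rrm2 cells and 0 in low-Rrm2 cells (log2 ratio 1.73, AUC 0.825).

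Deoxynucleotide synthesis, the pathway of Rrm2, had 2 of 15 genes called higher and 12 of 15 with a log2 ratio above 0. Tk1, which salvages thymidine, was at 0 to 166 CPM (median 52.1) in high-Rrm2 and 0 to 124 CPM (median 0) in low-Rrm2 cells (log2 ratio 2.10, AUC 0.785). Among all genes it had the highest Spearman rho with Rrm2 (0.65, 45 cells). Tyms, which makes dTMP, was counted in every cell, at 72.01 to 1364 CPM (median 210) and 4.76 to 409 CPM (median 124), with a log2 ratio of 1.14. Dck and Shmt1 had ratios of 1.25 and 1.67 without reaching the AUC limit.

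**Figure D3:**
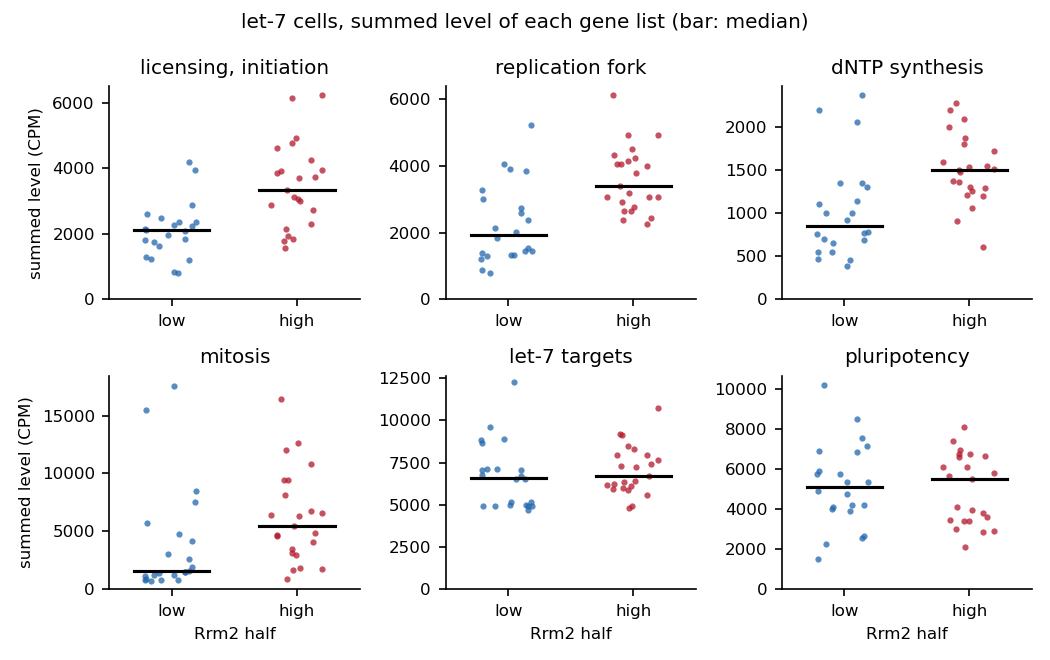
Summed level of 6 gene lists in CPM (y axes) in low-Rrm2 (blue) and high-Rrm2 (red) let-7 cells (x axes), 1 point per cell and the median as a bar. The licensing medians are 2099 and 3349 CPM, while the let-7 target medians are 6612 and 6691 CPM.

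Mitotic genes were also among those called. Of 44 genes in the list, 5 were called higher and 0 lower, 40 had a ratio above 0, and the median log2 ratio was 0.73. The summed level was 5445 CPM (median, 908 to 16477) in high-Rrm2 and 1523 CPM (713 to 17601) in low-Rrm2 cells, so that the highest single cell was a low-Rrm2 cell. Ccnb1, the mitotic cyclin, had medians of 293 and 1.66 CPM (log2 ratio 1.59, AUC 0.795) with ranges of 0 to 1408 and 0 to 1286 CPM. Plk1, a mitotic kinase, had a log2 ratio of 3.72 and counts in 14 of 23 and 3 of 22 cells. It was not called without the cell whose runs differed. Ttk, a spindle checkpoint kinase, had a log2 ratio of 2.63, Birc5, a chromosomal passenger protein, of 1.90, and Prc1, which bundles the central spindle, of 1.34. Cdk1 (log2 ratio 1.24, AUC 0.723), Top2a (0.74, 0.717), Ccna2 (0.40, 0.75) and Ccnf (3.94, 0.662) did not reach both limits. With genes detected removed, the median difference of the mitosis list in mean log2(CPM + 1) was 1.11, against 2.09 without that step, and Prc1 stayed called.

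The 12 called genes with the highest AUC also included Ncapd3, Ncapg2, Esco2 and Haus6. Ncapd3 and Ncapg2, subunits of condensin II, which compacts chromosomes, were at 81.3 ± 90.8 against 13.9 ± 26.7 CPM (log2 ratio 2.47, AUC 0.849) and 92.1 ± 102 against 43.9 ± 113 CPM (log2 ratio 1.05, AUC 0.822). Esco2, the acetyltransferase that sets cohesion in S phase, was at 45.5 ± 47.3 against 6.99 ± 16.03 CPM (log2 ratio 2.54). Haus6, an augmin subunit that nucleates spindle microtubules, was at 69.1 ± 73.1 against 17.97 ± 37.6 CPM (log2 ratio 1.89).

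The gene with the highest AUC was Emc3, a subunit of the complex that inserts proteins into the endoplasmic reticulum membrane (chr6:113514874-113531652, minus strand). It was counted in all 23 high-Rrm2 cells at 0.94 to 428 CPM (median 63.5), and in 10 of 22 low-Rrm2 cells at up to 101.3 CPM (median 0). The means were 90.2 ± 115 and 9.68 ± 24.1 CPM (log2 ratio 3.09, AUC 0.897). The summed counts were 3210 (exact 95% Poisson interval 3100 to 3323) and 338 (303 to 376). Nolc1, a nucleolar protein of ribosomal RNA synthesis (chr19:46075863-46085530, plus strand), was counted in every cell, at 4.89 to 484 CPM (median 216) and 3.92 to 180 CPM (median 49.97), with a log2 ratio of 1.77 and an AUC of 0.875. Rnps1, a splicing and exon junction protein, was at 59.02 ± 64.1 and 17 ± 25.97 CPM (log2 ratio 1.74). Mlx, a partner of Mondo family factors, had a log2 ratio of 1.09, and Ulbp1, a ligand of the NKG2D receptor, of 1.43. Emc3, Nolc1, Ncapd3, Rfc5, Rnps1 and Prc1 were called in all 16 alternatives in which the filter on low counts was kept. Several of these could change little. The split by thinned Rrm2 gave the same 94 genes. The other pseudocounts, the summed counts and the difference of mean log2(CPM + 1) kept the AUC of the main contrast.

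**Figure D4:**
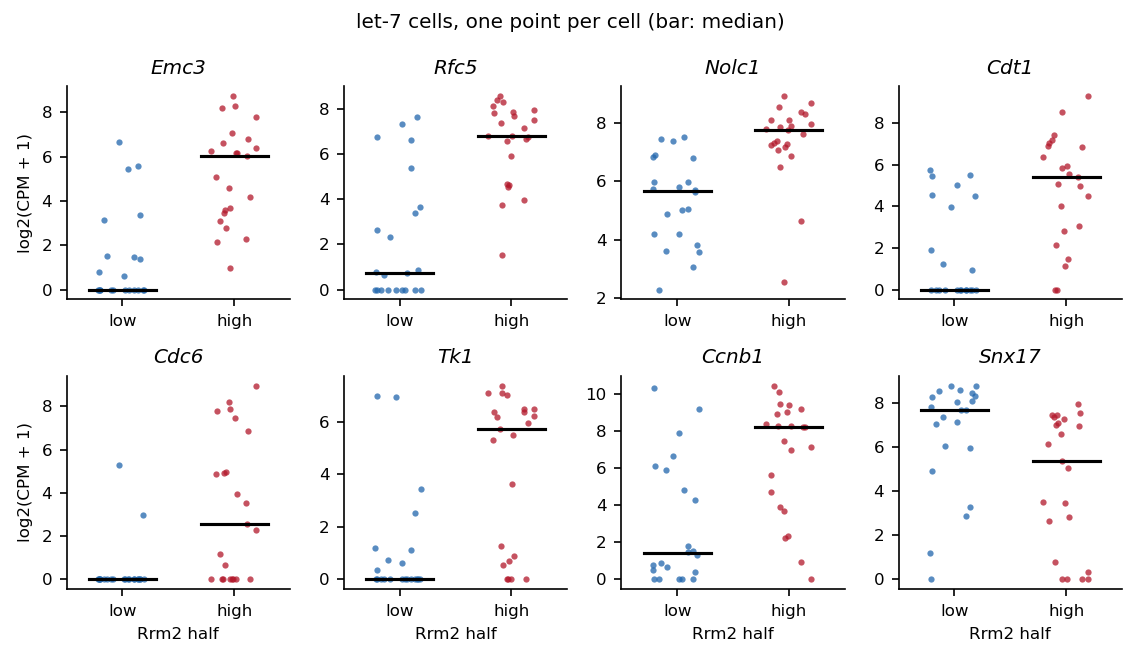
Level of 8 genes in each let-7 cell on the log2(CPM + 1) scale (y axes) in low-Rrm2 (blue) and high-Rrm2 (red) cells (x axes), with the median as a bar. Emc3, Cdt1, Cdc6 and Tk1 have a median of 0 in low-Rrm2 cells, and Snx17 is the gene drawn that is lower in high-Rrm2 cells.

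The 2 genes called lower in high-Rrm2 cells were Zfp994 and Snx17. Zfp994, a zinc finger gene (chr17:22197265-22225616, minus strand), was at 0 to 157 CPM (median 10.1) in high-Rrm2 and 1.21 to 274 CPM (median 81.5) in low-Rrm2 cells (log2 ratio -2.06, AUC 0.217). Zinc finger genes of this kind have close copies, so reads may have been shared among them. Snx17, an endosomal sorting protein (chr5:31193227-31199143, plus strand), was at 0 to 243 CPM (median 40.2) and 0 to 438 CPM (median 203), with a log2 ratio of -1.38 and an AUC of 0.245. Ranges overlapped for both.

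By rank over the 45 cells, the genes most like Rrm2 after Tk1 were Nolc1 (Spearman rho 0.64), Rfc5 (0.63), Asf1b (0.61), Ulbp1 (0.59), Blvra (0.59), Ran (0.58), Cbr3 (0.57), Ncapg2 (0.57) and Fanci (0.57). Ran, the GTPase of nuclear transport, was abundant and little spread, at 410 to 1536 CPM (median 1032) in high-Rrm2 and 252 to 1306 CPM (median 620) in low-Rrm2 cells, so that its log2 ratio was only 0.47. The lowest values of rho were those of Gm9803 (-0.48), Trmt5 (-0.47), 2410006H16Rik (-0.45), Fam177a (-0.45) and Duxbl3 (-0.44). These cells share 1 chip and differ in genes detected, and the correlations are a description.

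Among regulators of entry into S phase, 1 of 16 genes in the list of G1 cyclins, kinases and inhibitors was called (6.25%, against 0.84% of all genes), with a median log2 ratio of 0.21. In the E2F and Rb list 0 of 13 were called, where the share of all genes would give 0.11 calls, and the median was 0.55. Ccne2, the cyclin E that drives S phase entry, was the gene called, with medians of 12.6 and 0 CPM (log2 ratio 1.84, AUC 0.754). Ccne1 had a log2 ratio of 1.78 but an AUC of 0.674. Ccnd1 (0.07, AUC 0.560), Cdkn1a (-0.33, 0.5), Cdkn1b (0.62, 0.607), Cdc25a (-0.35, 0.599) and E2f1 (-1.28, 0.543) did not differ by the limits. The E2f1 ratio rested largely on 1 low-Rrm2 cell at 413 CPM, with medians of 1.16 CPM in high-Rrm2 and 0.69 CPM in low-Rrm2 cells. For Cdc25a the highest low-Rrm2 cell was at 371 CPM. Of the study's cell cycle list, 3 of 13 G1/S genes (Ccne2, Cdc6 and Pcna), 1 of 5 S genes other than Rrm2 (Tyms), 0 of 4 G2 genes, 2 of 12 G2/M genes (Birc5 and Ccnb1) and 0 of 1 M/G1 gene were called higher, with median log2 ratios of 0.64, 0.40, 1.33, 0.69 and -0.19. Mycn had medians of 0 in both sets of cells and was counted in 10 of 23 and 2 of 22 cells (AUC 0.686).

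Cell cycle phases were assigned with cyclone after the 6 marker pairs that contain Rrm2 were removed. Of 23 high-Rrm2 cells, 10 were assigned to G1, 8 to S (34.8%, exact 95% binomial interval 16.4 to 57.3%) and 5 to G2/M. Of 22 low-Rrm2 cells, 18 were assigned to G1 (81.8%, 59.7 to 94.8%), 1 to S (4.55%, 0.115 to 22.8%) and 3 to G2/M. Phases are read from the same RNA as the gene levels above, so they are not a second measurement. Not every G1 cell was low in Rrm2: the 28 cells assigned to G1 had a median of 1.04 CPM and a highest value of 397 CPM, and 10 of them were high-Rrm2 cells. The 9 S cells had a median of 126 CPM and the 8 G2/M cells of 99.9 CPM.

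The summed level of the let-7 targets differed little between the sets of cells. Of 168 measured targets other than Rrm2, 3 were called higher and 0 lower, next to 0.84% of all genes called higher. The summed level of the 170 targets found in the files was 6691 CPM (median, 4821 to 10759) in high-Rrm2 and 6612 CPM (4682 to 12262) in low-Rrm2 cells, with an AUC of 0.583, whereas it was 14940 CPM (10269 to 19903) in mock cells. On the scale of the mean log2(CPM + 1) over the targets, the cells had medians of 2.57 and 2.09 (AUC 0.779), while the mean over all tested genes had an AUC of 0.789. The lowest mock cell, by summed level, was above the median of both sets of let-7 cells. That contrast was largely built in: the list holds genes lowered by let-7, and let-7 cells without lowered targets had been removed. The called targets were Nme4, a mitochondrial nucleoside diphosphate kinase (13.4 ± 24.2 against 2.05 ± 9.04 CPM), Cdca5, which protects cohesion (69.8 ± 90.9 against 5.39 ± 12.2 CPM, log2 ratio 3.47), and Gins1. Lin28a, which binds let-7 precursors and is not on this list, was counted in 1 of 23 and 0 of 22 cells. Trim71, another target and a let-7 regulated RNA-binding protein, had medians of 105 and 41.2 CPM (log2 ratio 0.52, AUC 0.600).

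In the lists of cell identity markers the counts of calls cannot be told from the background. Of 23 pluripotency genes 0 were called in either direction, where the share of all genes would give 0.2 calls, and the median log2 ratio was -0.24. The other marker lists were shorter, so that 0 calls in them is likewise what that share gives. Pou5f1 had medians of 150 and 141 CPM, Zfp42 of 375 and 453 CPM, Sall4 of 139 and 74.7 CPM, Nanog of 18.2 and 67.8 CPM (log2 ratio -0.86, AUC 0.462) and Sox2 of 7.36 and 15.9 CPM (log2 ratio -1.02, AUC 0.346). Of the 10 differentiation markers, 3 passed the filter on low counts, and Sox17, Fgf5 and Gata6 were at 0 in every let-7 cell. Of 10 feeder fibroblast markers 1 passed the filter, and Col1a1, Col1a2, Col3a1, Postn and Lum were at 0 in every let-7 cell. Primitive endoderm and trophoblast lists had 0 of 4 and 0 of 6 measured genes called, and the two-cell-like list 0 of 6, with summed levels that reached 16392 CPM in a high-Rrm2 and 26709 CPM in a low-Rrm2 cell and medians of 0 and 0.14 CPM. In the p53 target, stress, miRNA processing and mitochondrially encoded lists 0 genes were called, where the share of all genes would give 0.15 calls at most in a list, and summed mitochondrial transcripts were at 30301 CPM (median) in high-Rrm2 and 28564 CPM in low-Rrm2 cells. In the Myc family list Mlx was called, as 1 of 11 (9.09%).

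Promoters of the called genes were searched for E2F sites, since E2F factors are known to drive many S phase genes. The letters TTTCCCGC, TTTCGCGC, TTTGCCGC and TTTGGCGC were sought on both strands from 250 bases before to 50 after each RefSeq start site (GRCm38.p6). A match was found for 13 of the 67 called-higher genes with a promoter sequence (19.4%) and for 435 of 8408 tested genes (5.17%), and in 744 of 32851 windows of the whole table (2.26%). In the replication and deoxynucleotide lists 4 of 11 called genes had a match. The letters TTTGAA, the core of the CHR element of many mitotic genes, were in 17 of 67 called genes (25.4%) and 1216 of 8408 tested genes (14.5%). They were in 3 of the 5 called mitosis genes, where no E2F match was found in this window. The letters CCAAT were also sought. They were in 29 of 67 called genes (43.3%), 3718 of 8408 tested genes (44.2%) and 4 of the 5 called mitosis genes. A match is a description of the sequence, and binding was not measured. For 6 of the genes, 60 bases upstream of the RefSeq start site are shown, in the direction of transcription, with the E2F letters in capitals.
Cdc6, chr11:98907987-98908046, plus strand: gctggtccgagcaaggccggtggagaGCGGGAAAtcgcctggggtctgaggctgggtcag
Mcm5, chr8:75109330-75109389, plus strand: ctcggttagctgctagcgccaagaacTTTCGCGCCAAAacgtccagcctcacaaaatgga
Uhrf1, chr17:56304102-56304161, plus strand: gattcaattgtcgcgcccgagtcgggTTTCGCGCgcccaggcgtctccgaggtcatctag
Nolc1, chr19:46075704-46075763, plus strand: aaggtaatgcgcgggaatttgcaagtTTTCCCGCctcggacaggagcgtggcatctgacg
Emc3, chr6:113531679-113531738, minus strand: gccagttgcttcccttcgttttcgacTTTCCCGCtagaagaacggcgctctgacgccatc
Cenpm, chr15:82244374-82244433, minus strand: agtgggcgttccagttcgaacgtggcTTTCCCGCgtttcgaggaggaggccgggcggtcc
The matches began 138, 153, 185, 117, 74 and 71 bases before the start site, in the order shown. The stretches shown for Cdc6, Uhrf1 and Cenpm lie inside the Gencode M21 genes, so they are upstream of the RefSeq start only. The RefSeq start site of Emc3 also lies inside its Gencode gene, but the stretch shown for it does not. In Mcm5 the capitals cover a pair of overlapping matches on opposite strands, and Cenpm encodes a centromere protein. The let-7 seed match was in the 3′ UTR of 8 of 90 called-higher genes with a UTR (8.89%), against 10.6% of tested genes.

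The same split was made in the mock, miR-294 and wild-type cells, which the choice of cells had not used. Each condition was divided at its own Rrm2 median, and counts were summed over the cells on either side. A difference shared by the 3 conditions was tested with the quasi-likelihood test of edgeR on the 6 sums, with condition as a block and 2 residual degrees of freedom. Of 11184 genes, 0 passed at a Benjamini-Hochberg adjusted p of 0.05 (0%), and 369 had an unadjusted p below 0.05 (3.3%). DESeq2 called 29 genes higher and 19 lower of 10961 with an adjusted p.

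With edgeR the genes of smallest unadjusted p among those higher were Zscan4c, E2f8, Ttll5, Rpa2 and Rassf4, all at an adjusted p of 0.982. They did not all rest on the 3 conditions alike. The log2 ratios in mock, miR-294 and wild-type cells were 0, 0 and 7.87 for Rassf4 and 2.84, 5.87 and 0.22 for Zscan4c, but 3.73, 3.24 and 3.10 for E2f8. E2f8, an atypical E2F, had a log2 fold change of 3.88 (SE 0.57), and Rpa2, a subunit of the single-strand binding protein at forks, of 1.16 (SE 0.20). In let-7 cells Rpa2 had a log2 ratio of 1.11 (AUC 0.704), and E2f8 was counted in no low-Rrm2 cell, with a mean of 7.65 CPM in high-Rrm2 cells. Rassf4 was counted in no let-7 cell. Among those lower, the smallest p belonged to Trpa1, mt-Atp6, Gm28661, Plcxd1 and Gm37376, again with an adjusted p of 0.982. mt-Atp6 had a log2 fold change of -0.61 (SE 0.09) there and a log2 ratio of 0.25 in let-7 cells.

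Of the 24 licensing genes, 7 had an unadjusted p below 0.05 in the 3 other conditions, as did 6 of 30 replication fork genes, 5 of 13 G1/S genes and 6 of 44 mitosis genes, next to 3.3% of all genes. These counts take either direction. The highest share was in the two-cell-like list (5 of 6), followed by 3 of 5 S phase genes other than Rrm2. Medians of the two-cell-like list were 0.30, 4.86 and 0 in mock, miR-294 and wild-type cells, and -1.37 in let-7 cells. None of these genes passed the adjusted threshold. The list medians of the log2 ratio in mock, miR-294 and wild-type cells were 0.51, 0.14 and 0.64 for licensing and -0.15, 0.10 and 0.16 for mitosis, against 0.73 for both lists in let-7 cells. Ccne2 had log2 ratios of 1.18, 1.49 and 1.62 in the 3 conditions and 1.84 in let-7 cells, and Uhrf1 of 1.28, 0.48 and 0.94 and 1.30 in let-7 cells. Tk1 had ratios of 1.18, 0.50 and 1.08. Rfc5, by contrast, had ratios of 0.13, 0.25 and 0.19 and 2.30 in let-7 cells, and Emc3 of -0.46, 0.20 and 1.19. Whether the conditions differ from each other was not tested.

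Across the 94 genes called higher in let-7 cells, the ratio was above 0 in 58 in mock (61.7%, against 47.6% of all genes), in 59 in miR-294 (62.8%, against 51.2%) and in 59 in wild-type cells (62.8%, against 47.7%). It was above 0 in all 3 conditions in 27 genes (28.7%, against 13.1% of all genes) and in 0 conditions in 9 genes. By the limits used in let-7 cells, few of the 94 genes were called higher elsewhere: 5 in mock, 0 in miR-294 and 7 in wild-type cells. Among all genes, 9 (0.0805%), 5 (0.0447%) and 337 (3.01%) were called higher there, the last with only 8 wild-type cells on either side. The levels at which the cells were divided were 333, 554 and 636 CPM in these conditions, against 32.7 CPM in let-7 cells.

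**Figure D5:**
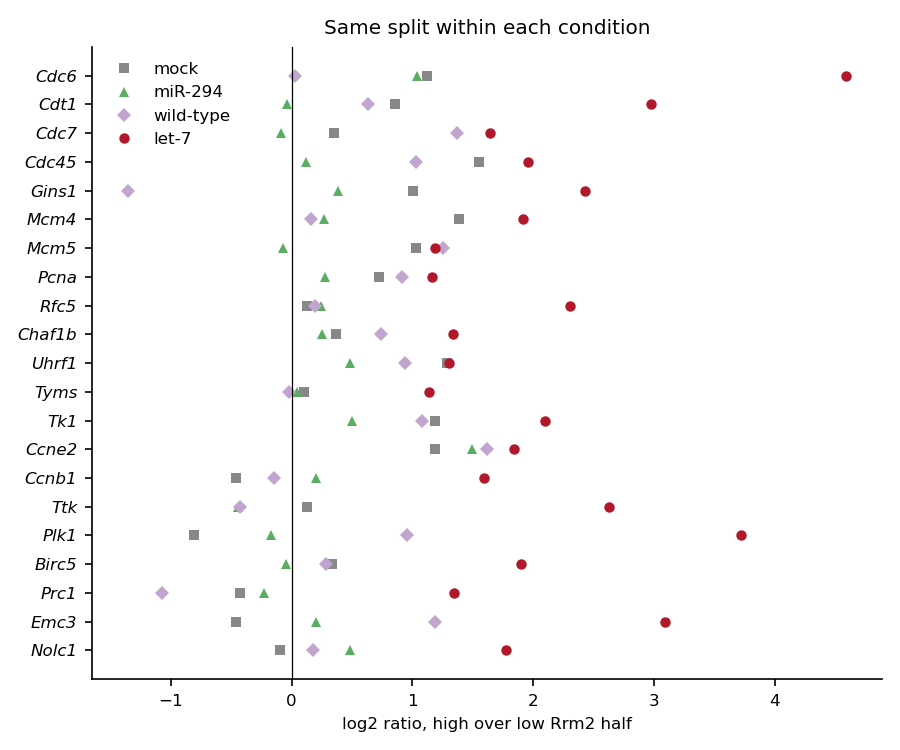
log2 ratio of the mean CPM of cells above over cells at or below the median Rrm2 level of their condition (x axis) for 21 genes called higher in let-7 cells (y axis), in let-7 (circles), mock (squares), miR-294 (triangles) and wild-type cells (diamonds). The let-7 ratios, which were used to pick these genes, run from 1.14 in Tyms to 4.59 in Cdc6, and the mitotic genes Ccnb1, Plk1 and Prc1 are below 0 in mock cells.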

How the data were processed

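The data were single-cell RNA-seq libraries, 55 runs of 48 let-7 cells among 232 runs of 182 cells. The authors mapped reads to Gencode M4 transcripts with RSEM 1.2.19, as named in the submitters' processing notes. They deposited raw expected counts per gene for every run. They also deposited an FPKM, scaled for length and depth, which entered no comparison. The authors had removed wells with dead or several cells, libraries of low diversity and transfected cells without lowered targets. No doublet caller was run.

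Repeat runs were added up per cell and scaled to CPM of the cell total (513541 to 3979310 over all cells). Sums were rounded for edgeR 4.0.16, where library sizes were TMM scaled, and for DESeq2 1.42.0, which used its own size factors (R 4.3.3). Genes averaging 5 or more counts were kept. Cells correlating above 0.95 were averaged, although the design had counted all 48 cells. Phases came from scran 1.30.0 and figures from matplotlib. Positions are those of GRCm38 in Gencode M21. The sums of each condition are single cultures, so p-values measure the spread among 3 unlike cultures.

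The members, gene lists and limits were chosen with earlier results of these data known. The genes named were the 12 called genes of most extreme AUC in each direction, the 10 highest and 5 lowest by Spearman rho with Rrm2, every called member of a list, a fixed set of cell cycle, pluripotency and miRNA genes, and the 5 genes of smallest p in each direction elsewhere. A gene of the fixed set is not reported here. Dck, Shmt1, Orc1 to Orc6 and Cenpm were named after their values were seen. Both the description and the edgeR fit were tried on simulated counts with known changes. The spread of those counts was set in advance and not fitted to these cells, so the simulations checked the code and not the calls.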

Additional observations from a re-analysis of the deposited data

Results flagged for a closer look

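Prc1, a gene of the mitosis list, had a log2 ratio of 1.34 between high-Rrm2 and low-Rrm2 let-7 cells and ratios of -0.43, -0.22 and -1.08 in mock, miR-294 and wild-type cells. It was singled out because the ratio in let-7 cells and those in all 3 other conditions had opposite signs, with 1 culture per condition. The AUC was 0.783 in let-7, 0.473 in mock, 0.466 in miR-294 and 0.281 in wild-type cells. In mock and miR-294 cells it thus lay near 0.5, and wild-type cells numbered 8 on either side. The difference between let-7 cells and the other conditions was not tested.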

How the results depend on the processing

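All statements here are over the alternatives run. The count of 94 genes higher stayed within 1.5 times (70 to 118) under TMM factors, DESeq2 size factors, no filter, pseudocounts of 5 and 0.1 CPM, summed counts, the difference of mean log2(CPM + 1), first runs, cells sequenced once, thinned counts, a split by thinned Rrm2, all 48 cells, without the cell whose runs differ (92, with 83 of the 94 genes shared), and a median set again over 45 cells. It rose to 236 with the 16 highest against the 15 lowest cells and 294 with only the low cells at 0 Rrm2, and was 24 with genes detected removed from log2(CPM + 1), against 114 on that scale without the step. Of the 94 genes, 60 stayed called with the median set again over 45 cells and 63 with the highest against the lowest cells. With size factors 69 stayed called, with cells sequenced once 72, with low cells at 0 Rrm2 73 and with thinned counts 74. In the rest it was 79 or more, apart from the 9 with genes detected removed. The count of 2 genes lower became 4 with TMM factors and with mean log2(CPM + 1), 6 with size factors, 26 with the highest against the lowest cells, 48 with low cells at 0, and 36 with genes detected removed, against the 4 on the same scale. TMM and size factors moved the median log2 ratio of all genes to -0.05 and -0.12. The licensing list median was 1.92 with mean log2(CPM + 1), a scale on which all genes had a median of 0.29. The other list medians stayed within the spread between cells, and the S phase share within its binomial interval. That spread was wide: the mitosis median went from 0.73 to 2.09 with mean log2(CPM + 1), against an SD of 2.03 between cells. The pluripotency median was 0.05 with mean log2(CPM + 1) and below 0 otherwise. Of the values of named genes, 1092 stayed within the SD of log2(CPM + 1) between cells and 12 did not, and none changed the sign of a call. That SD was 1.43 for Nolc1 and 3.21 for Ccnb1. A called ratio could thus fall below the limit and still count as unchanged. In the 3 other conditions the edgeR counts stayed at 0 higher and 0 lower with RLE factors, no filter, let-7 cells added as a condition, without the wild-type cell whose runs differ, and without the mock or miR-294 condition. Without the wild-type condition they were 1 and 1, and with DESeq2 29 and 19. The cause of these changes was not tested. No paired analysis was possible because the numbers in the labels are sequencing runs of a cell or capture sites and pair no cells across conditions. At 808430 to 3979300 counts per cell, a count of 0 cannot tell an unexpressed gene from one not captured.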
